A study of Homo sapiens with 9 samples.

Results

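Intermediate filament transcripts were examined in HEK293 cells, a line of human embryonic kidney origin that takes up plasmids readily, as the neurofilament genes NEFL, NEFM and NEFH, the internexin gene INA, VIM (vimentin), NES (nestin) and the keratin genes KRT8, KRT18 and KRT19. The 9 genes were chosen by name, not by a measured value, although earlier results of these data were known by then. Of these, 8 were found among the 54562 genes of the expression table, and 6 of the 8 passed the filter for testing, a mean of at least 1 FPKM, which left 13801 genes in all. FPKM counts fragments per kilobase of transcript relative to a library's total, so levels of different genes can be compared per length. NEFL was not analysed here, because its current identifier was not among those of the table. NEFH and KRT19 were below the filter, and their values are given without a test.

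The samples were 9 libraries of polyadenylated RNA collected 48 hours after transient transfection. The control cells received the empty vector (EV), and the other cells received either the isoform of the RNA editing enzyme ADARB1 without the Alu exon (Short) or the isoform with it (Long). Each group had 3 libraries, and the transfections were repeated in 3 cell passages. The replicate number is taken here to stand for the passage, which the labels do not state. All groups were cells of the same line, in the same medium with serum, treated with the same lipid reagent. HEK293 is a transformed line grown in culture, so its levels describe that line and not the kidney. ADARB1 itself had 7.66, 8 and 8.61 FPKM across the EV libraries. The Short libraries had 1889, 4145 and 2735 FPKM of it and the Long libraries 1695, 3449 and 2080, so ADARB1 was raised in all 6 libraries labelled Short or Long. The values are per gene and do not tell the isoforms apart. Read totals were not given. The steps between the lowest FPKM values placed the depth of the other 8 libraries between 0.997 and 1.2 times that of EV replicate 1, with the libraries of passage 3 at 1.11 to 1.2. These are rough estimates, since between 22.5% and 46.1% of the genes used lay within 0.02 of them on the log2 scale.

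Intermediate filaments are rope-like polymers of the cytoplasm and the nucleus. Each subunit has a central coiled-coil rod between a head and a tail, and subunits pair through the rod before they assemble. Keratins pair only as a type I with a type II chain, such as KRT18 or KRT19 with KRT8, and are the filaments of epithelial cells. Vimentin forms filaments by itself and is the filament of mesenchymal cells and of most cells in culture. Nestin needs a partner such as vimentin and is best known from dividing neural progenitors. The neurofilament chains and internexin make up the filaments of axons, where the light chain, encoded by NEFL, and internexin are the chains that the longer NEFM and NEFH chains join.

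The end of the rod carries the helix termination motif, the best conserved stretch of the family, and its coding bases are shown because they are where the genes compared here can be seen to be relatives. The sequences were read from GRCh37, 5′ to 3′ on the coding strand, with a base in capitals where it is the same as in KRT8.
KRT8: ACCTACAGGAAGCTGCTGGAGGGCGAG
VIM: ACCTACAGGAAGCTGCTGGAaGGCGAG
KRT18: ACCTACcGccgcCTGCTGGAaGatGgc
KRT19: ACCTACcGcAgcCTGCTcGAGGGacAG
INA: gCtTACAGGAAaCTGCTGGAaGGCGAG
NEFH: gCtTACAGaAAaCTcCTGGAaGGtGAa
NES: ACgTACAGGAccCTcCTGGAGGctGAG
Of the 27 bases, VIM shared 26 with KRT8, INA 23, NES and NEFL 21, KRT19 and NEFM 20, NEFH 19 and KRT18 17. The sequences of NEFL and NEFM are not printed here. The type II keratin KRT8 was thus closer to vimentin over this stretch than to KRT18, the type I chain it pairs with. The stretch lies at chr12:53292471-53292497 on the minus strand in KRT8 (exon 6 of 8), at chr10:17277354-17277380 on the plus strand in VIM (exon 7 of 10), at chr12:53346089-53346115 on the plus strand in KRT18 (exon 6 of 7) and at chr17:39680037-39680063 on the minus strand in KRT19 (exon 6 of 6). In INA, NES and the 3 neurofilament genes it is split by an intron, with 8 bases at the end of one coding exon and 19 at the start of the next. The annotated proteins ranged from 400 residues in KRT19 and 430 in KRT18 to 1020 in NEFH and 1621 in NES. Nestin and the larger neurofilament chains owe their length to the tail.

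Among the genes of the set with values, which leaves out NEFL, the keratin pair and vimentin were the most abundant transcripts in EV cells. The neurofilament gene NEFM stood next to them. KRT8 was at 189, 174 and 163 FPKM in EV replicates 1, 2 and 3, and averaged 176 ± 13.1 (SD, n = 3). VIM was at 149, 148 and 132 FPKM, with a mean of 143 ± 9.34 (SD, n = 3). KRT18 was at 87.1, 76.3 and 76.3 FPKM, with a mean of 79.9 ± 6.26 (SD, n = 3). Among the 13815 genes that averaged at least 1 FPKM in EV, whose median was 11.6 FPKM, these means were at the 97.2, 96.3 and 92.8 percentiles. NEFM was at 48.6, 55.3 and 70.8 FPKM, with a mean of 58.2 ± 11.4 (SD, n = 3) at the 89.6 percentile. Its spread between passages was the widest, relative to its mean, of the 6 genes tested.

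The other axonal and progenitor genes were lower. INA was at 11.1, 10.3 and 12.5 FPKM in EV, with a mean of 11.3 ± 1.09 (SD, n = 3), close to the median of the genes with at least 1 FPKM. NES was at 3.41, 3.37 and 3.02 FPKM, with a mean of 3.27 ± 0.213 (SD, n = 3) at the 18.6 percentile. The heavy neurofilament gene NEFH was at 0.0784, 0.12 and 0.136 FPKM. The second type I keratin, KRT19, was listed at 0, 0.174 and 0.0472 FPKM. NEFM was therefore present without a comparable level of NEFH, and of the type I keratins in the set only KRT18 was at a level near that of KRT8.

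**Figure D1:**
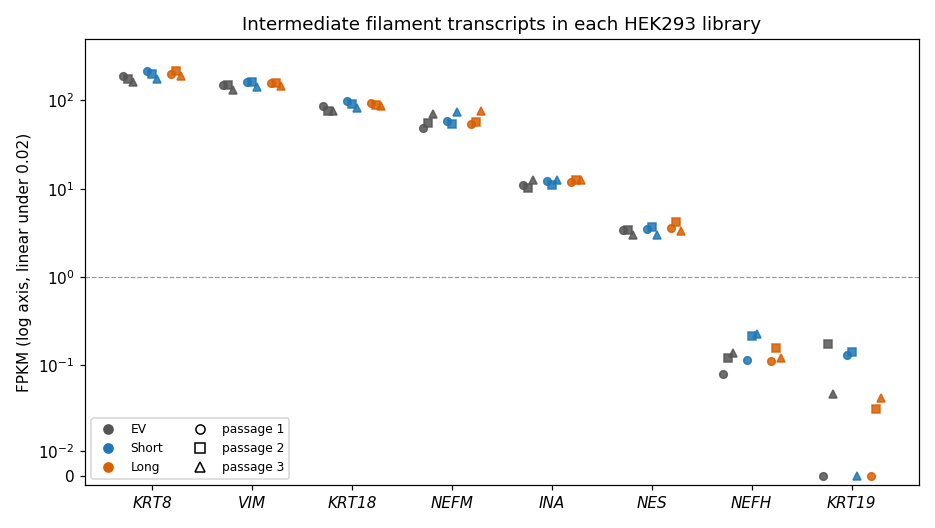
FPKM of the 8 filament genes (x axis) in each of the 9 libraries, on a log y axis that is linear under 0.02. Points are single libraries, colours are EV, Short and Long, shapes are passages, and the dashed line is 1 FPKM. The order from KRT8 to NES is the same in every group, and NEFH and KRT19 lie far below 1 FPKM.

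The order of the 6 tested genes was the same in each of the 9 libraries. Compared within libraries in EV, KRT8 was above VIM by 0.30 ± 0.06 on the log2 scale (SD, n = 3), or 1.23-fold. VIM was above KRT18 by 0.84 ± 0.10. KRT18 was above NEFM by 0.47 ± 0.37. NEFM was above INA by 2.35 ± 0.19, or 5.11-fold, and INA above NES by 1.79 ± 0.23. NES was above NEFH by 4.91 ± 0.49, and NEFH was above KRT19 in 7 of the 9 libraries, so the last 2 places in the order are not separated. Each step down to NEFH had the same direction in all 3 EV libraries. For this an exact two-sided sign-flip permutation test gives p = 0.25, the smallest that 3 libraries allow. The order was taken from the means of the same EV libraries, so this p is no separate support for it.

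As a share of the summed FPKM of the 8 genes in EV, the 3 keratin genes held 54.2% ± 2.22 (SD, n = 3), VIM and NES together held 31% ± 1.42, and NEFM, NEFH and INA held 14.8% ± 3.07. The last share was 12.2%, 14.1% and 18.2% in replicates 1, 2 and 3. KRT8 was 2.2 ± 0.0762 times KRT18 in EV and between 2.11 and 2.4 times in all 9 libraries. Most of the share of NEFM, NEFH and INA was NEFM, with 12.4% of the summed FPKM against 2.4% for INA. NEFM was 5.14 ± 0.665 times INA (SD, n = 3). NEFL had no value here, so its level beside these axonal genes is not known.

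KRT8 and KRT18 were almost the whole of the keratin family at this level. Of 54 keratin genes listed, 3 averaged at least 1 FPKM in EV, namely KRT8, KRT18 and the type I keratin KRT10, whose EV mean was 9.09 FPKM. A further 28 were above 0 in some library but under 1 FPKM in EV, the highest of them being KRT17 at 0.429 FPKM, and 23 were at 0 in all libraries. Among 60 other intermediate filament genes, keratins included, 7 passed the filter. The nuclear lamins led them, with LMNB1 at 101 ± 0.887, LMNB2 at 78.7 ± 2.69 and LMNA at 32.4 ± 3.16 FPKM in EV (SD, n = 3). KRT10 was followed by SYNM (synemin) at 5.53, PRPH (peripherin, a filament of peripheral neurons) at 4.23 and BFSP1 (a lens filament protein) at 1.84 FPKM. DES (desmin, the filament of muscle) at 0.78 FPKM and GFAP (the filament of astrocytes) at 0.673 FPKM were under 1 FPKM in EV.

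Markers of several cell types were present beside the filament genes, and in each list the levels were uneven. Of 25 neuronal markers, 16 averaged at least 1 FPKM in EV, led by the ubiquitin hydrolase UCHL1 at 318 ± 9.63, the enolase ENO2 at 33.1 ± 10 and STMN3 at 33 ± 0.477 FPKM (SD, n = 3). DCX and STMN2, which mark young neurons, were at 0.00566 and 0.0919 FPKM, and the synaptic gene SNAP25 and the nuclear marker RBFOX3 were at 0.754 and 0.561 FPKM. Other members of the list were higher, among them NCAM1 at 14.1, the neuronal tubulin TUBB3 at 10.7, MAPT (tau) at 7.16, and the synaptic genes SYP at 6.09 and SYT1 at 1.99 FPKM. Of 13 neural progenitor markers, 7 reached 1 FPKM, led by HES1 at 27.9, PAX6 at 19 and MSI1 at 15.4 FPKM. Of 10 glial markers, 5 did, led by the glutamate transporter gene SLC1A3 at 23.3 FPKM, then MBP at 5.8 and OLIG1 at 1.35 FPKM. SOX10, a defining factor of oligodendrocytes and Schwann cells, was listed at 0 in all 3 EV libraries. NCAM1, TUBB3, MAPT, SYP, SYT1, DCX, STMN2, SNAP25, RBFOX3 and SOX10 were named after their values were seen, as were KRT10, KRT17, SYNM, PRPH, BFSP1, DES and GFAP.

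The epithelial and mesenchymal lists were mixed in the same way. Of 22 epithelial markers, 11 averaged at least 1 FPKM in EV, led by the protease inhibitor SPINT2 at 89.6 ± 12.4, MAL2 at 29.6 ± 2.08 and the junction protein F11R at 29.1 ± 7.2 FPKM (SD, n = 3). E-cadherin (CDH1) and EPCAM were at 9.45 and 15.8 FPKM, whereas GRHL2, a regulator of epithelial genes, was listed at 0 in all 3 EV libraries. Of 20 mesenchymal markers, 13 did, led by the matrix genes SPARC at 120 ± 30.3 and FN1 at 47.9 ± 11.9 FPKM and by N-cadherin (CDH2) at 41.9 ± 1.37 FPKM. Of 13 adrenal markers, 3 did, with GATA3 at 12.3, ISL1 at 5.86 and HAND2 at 2.78 FPKM, and DBH, MC2R and PHOX2A were at 0 in all 9 libraries. In summed FPKM over the whole list, the neuronal markers came to between 486 and 506 in the EV libraries, most of it UCHL1, the epithelial markers to between 216 and 274 and the mesenchymal markers to between 217 and 311. Within EV the sums of the neuronal, progenitor, epithelial and mesenchymal lists were all lowest in replicate 3, as were VIM, NES and KRT8, and that library also had the lowest summed FPKM of all 9, 517170. CDH1, EPCAM and GRHL2 were also named after their values were seen.

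**Figure D2:**
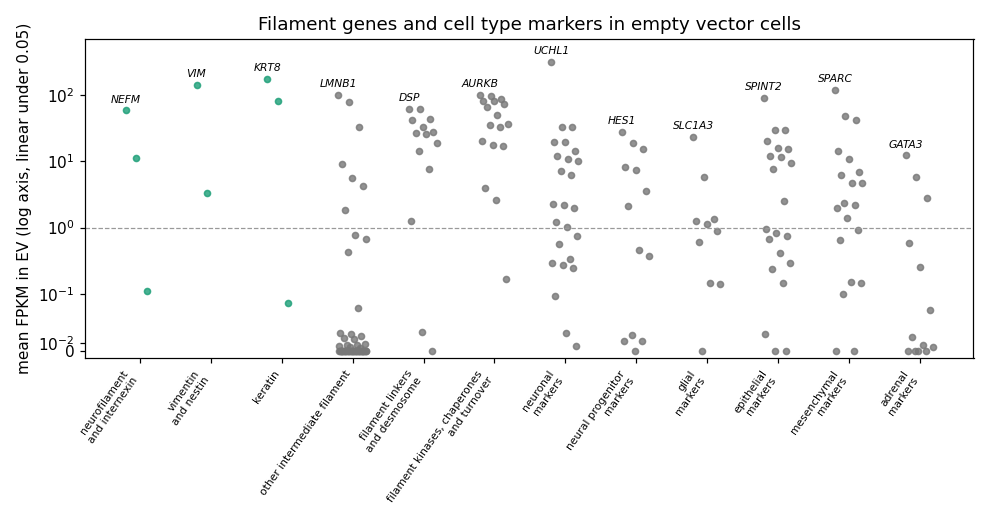
Mean FPKM in the 3 EV libraries of each gene (points), by list (x axis), on a log y axis that is linear under 0.05, with the set analysed here in green and the other lists in grey. The dashed line is 1 FPKM, the most abundant gene of each list is named, and points are spread sideways within a list so that they can be seen. Each marker list spans from well above 1 FPKM down to near 0.

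The genes for proteins that anchor filaments were well represented. Of 15 linker and desmosome genes, 14 were found in the table and 12 averaged at least 1 FPKM in EV. Desmoplakin (DSP), which ties keratins to desmosomes, was at 61.1 ± 2.98, the desmosomal cadherin DSG2 at 60.3 ± 3.04 and plakoglobin (JUP) at 42.7 ± 2.19 FPKM in EV (SD, n = 3). Of 18 kinases, chaperones and turnover genes of filaments, 17 were found and 16 reached 1 FPKM. They were led by AURKB, a mitotic kinase that phosphorylates vimentin, at 100 ± 7.32, the small heat shock protein gene HSPB1 at 97.8 ± 16.3 and CDK1 at 87.8 ± 7.5 FPKM (SD, n = 3).

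Expression of the Short isoform was compared with EV to ask whether the filament genes differed when ADARB1 without the Alu exon was added. None of the 6 tested genes passed an adjusted p of 0.05 (limma with the passage as a block, Benjamini-Hochberg), and 3 of them were under 0.05 before adjustment. In this comparison 0.0362% of all genes passed, 5 of 13801, and 3041 genes were under 0.05 before adjustment. KRT18 was at 99.6, 90.7 and 82.5 FPKM in Short, against the 87.1, 76.3 and 76.3 FPKM of EV. The groups overlapped, but Short was the higher in each passage, with a log2 difference of 0.18 (SE 0.05, adjusted p = 0.11 by limma). KRT8 was at 216, 198 and 174 FPKM in Short, which overlapped EV, with a log2 difference of 0.16 (SE 0.05, adjusted p = 0.141 by limma). VIM was at 164, 163 and 142 FPKM in Short, with a log2 difference of 0.13 (SE 0.04, adjusted p = 0.138 by limma).

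The axonal and progenitor genes did not pass in Short against EV either. NEFM was at 58.1, 54.6 and 73.1 FPKM in Short, higher than EV in 2 of the 3 passages, with a log2 difference of 0.09 (SE 0.06). INA was at 12.3, 10.9 and 12.6 FPKM in Short, with a log2 difference of 0.08 (SE 0.07). NES was at 3.52, 3.65 and 3.02 FPKM, with a log2 difference of 0.04 (SE 0.09). INA, VIM, NES, KRT8 and KRT18, 5 of the 6, were higher in Short in each passage, although the difference of NES in passage 3 rounds to 0.00 on the log2 scale. Over all genes tested 32% were higher in Short in each passage. In none of the 6 were all Short libraries above all EV libraries, where 10.9% of all genes were. The median log2 difference was 0.11 over the 6 genes and 0.04 over all genes tested. NEFH, which was not tested, was at 0.113, 0.214 and 0.225 FPKM in Short, higher than in EV in each passage but overlapping it. KRT19 was listed at 0.13, 0.141 and 0 FPKM in Short.

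The Long isoform was compared with EV in the same way. KRT8 was higher and passed the test narrowly. It was at 201, 214 and 188 FPKM in Long, against 189, 174 and 163 FPKM in EV. The log2 difference was 0.20 (SE 0.05, 95% interval 0.08 to 0.32, adjusted p = 0.0499 by limma), and it was 0.09, 0.30 and 0.20 within passages 1, 2 and 3. The lowest Long library, at 188 FPKM, was just under the highest EV library, at 189 FPKM. KRT8 was thus 1 of 6 filament genes that passed, while 8.32% of all genes passed in this comparison, 1.99% higher in Long and 6.33% lower. The call did not hold without the passage block (adjusted p = 0.637), with FPKM rescaled to the same sum (0.15) or after correction of each library for GC content, where the difference was 0.11 (adjusted p = 0.319). The difference was 0.20 without the block and 0.12 with the rescaling. Without passage 1, 2 or 3 it was 0.25, 0.15 and 0.19, with adjusted p of 0.128, 0.443 and 0.162 by limma. Of all genes, 2, 100 and 1031 passed in those fits, against 1148 in the main fit. KRT8 passed under 1 of the 13 alternatives tried.

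KRT18, the partner chain, was at 94.4, 89.1 and 87.6 FPKM in Long. Each of these was above each EV library, which was so for 1 of the 6 genes and for 10.5% of all genes. Its log2 difference was 0.18 (SE 0.05, 95% interval 0.06 to 0.29), close to that of KRT8, but it did not pass the test (adjusted p = 0.0596 by limma). After the GC correction its difference was 0.09 (adjusted p = 0.379 by limma). VIM was at 159, 158 and 145 FPKM in Long, overlapping EV, with a log2 difference of 0.11 (SE 0.04, adjusted p = 0.152 by limma). For both genes the difference had the same direction in the 3 passages.

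NEFM was at 53.8, 57.3 and 75.5 FPKM in Long, with a log2 difference of 0.10 (SE 0.06, adjusted p = 0.356 by limma). INA was at 12, 12.5 and 12.4 FPKM, with a log2 difference of 0.12 (SE 0.07, adjusted p = 0.37 by limma). NES was at 3.61, 4.14 and 3.34 FPKM, with a log2 difference of 0.14 (SE 0.09, adjusted p = 0.362 by limma). NEFM, VIM, NES, KRT8 and KRT18 were higher in Long in each passage, 5 of 6 genes, where 27.4% of all genes were. The median log2 difference was 0.13 over the 6 genes and 0.04 over all genes tested. NEFH was at 0.112, 0.155 and 0.121 FPKM and KRT19 was listed at 0, 0.0319 and 0.0425 FPKM in Long, both overlapping EV.

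Part of the upward shift was shared by the whole table. The summed FPKM of a library was between 517170 and 541348 in EV, between 533531 and 589535 in Short and between 544461 and 567585 in Long. With every library scaled to an equal FPKM total, the median log2 difference of the 6 genes was 0.03 in Short and 0.06 in Long, beside -0.03 over all genes in both, and that of NES in Short turned to -0.02. With the GC correction the median of the 6 genes was 0.05 in both comparisons, beside 0.03 over all genes in Short and 0.01 in Long. Both comparisons use the same EV libraries, so their likeness is not a second observation.

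**Figure D3:**
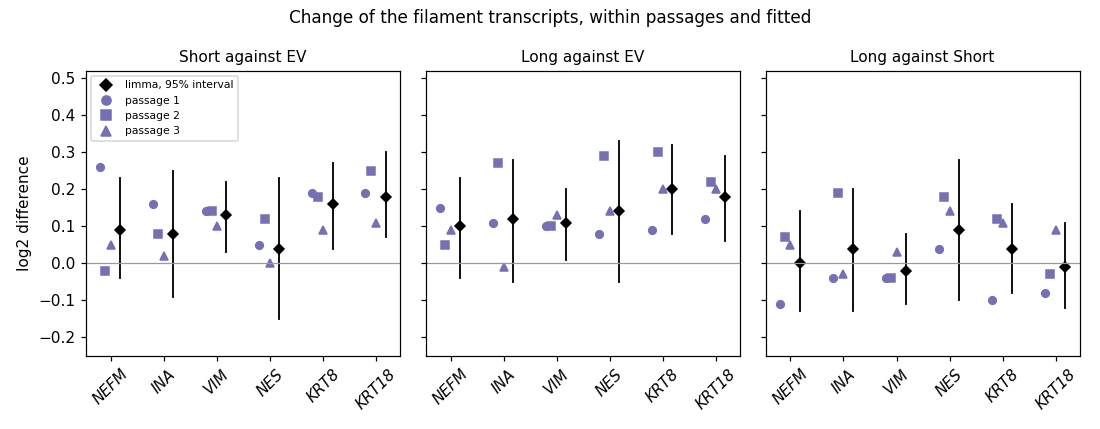
Log2 differences (y axis) of the 6 tested genes (x axis) for Short against EV, Long against EV and Long against Short. Coloured points are the differences of log2 FPKM within each passage, and black diamonds with bars are the limma estimates on log2(FPKM + 1) with their 95% intervals. In the first 2 panels the estimates lie between 0.04 and 0.20, and in the third all 6 intervals include 0.

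Long and Short were compared directly to ask whether the Alu exon made a difference. None of the 6 genes passed, and none was under 0.05 before adjustment. In this comparison 0.00725% of all genes passed, 1 of 13801, and 1040 were under 0.05 before adjustment. The log2 difference of Long minus Short was 0.04 for KRT8 (95% interval -0.08 to 0.16), -0.01 for KRT18 (-0.12 to 0.11) and -0.02 for VIM (-0.11 to 0.08). It was 0.00 for NEFM (95% interval -0.13 to 0.14), 0.04 for INA (-0.13 to 0.20) and 0.09 for NES (-0.10 to 0.28). These intervals are on the log2(FPKM + 1) scale, which shrinks the difference of a low gene such as NES, and they do not show that there was no difference.

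Among the genes that work with filaments, none of the lists had a member that passed in Short against EV or in Long against Short. In Long against EV, 1 of the 7 other intermediate filament genes tested rose and none fell, where 1.99% of all genes rose and 6.33% fell. This was LMNB2, a nuclear lamin, at 87.2, 97.1 and 95.4 FPKM in Long and at 79.5, 75.7 and 80.9 FPKM in EV, with no overlap (log2 difference 0.24, SE 0.06, adjusted p = 0.026 by limma). LMNB2 passed under 4 of 13 alternatives, and not with FPKM rescaled to the same sum (adjusted p = 0.0686 by limma). The median log2 difference of the 7 was 0.12 in Long, beside 0.04 over all genes. Of 12 linker and desmosome genes tested, 1 rose and 1 fell, beside the same 1.99% and 6.33% of all genes. PKP3, a plakophilin of the desmosome plaque, was at 32.9, 32.9 and 33.7 FPKM in Long and at 26.1, 25.5 and 25.2 FPKM in EV (log2 difference 0.36, SE 0.06, adjusted p = 0.00916 by limma). In Short it was at 35.6, 32.9 and 32.6 FPKM, also above all EV libraries, with an adjusted p of 0.0723 by limma.

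DST, a giant linker of filaments to other parts of the cytoskeleton, was at 8.06, 9.87 and 28.2 FPKM in Long and at 30.9, 28.2 and 38 FPKM in EV. Its log2 difference was -1.22 (SE 0.20, adjusted p = 0.00965 by limma), and the library of passage 3 stood apart from the other Long libraries. Of 16 kinases, chaperones and turnover genes tested, 3 fell and none rose, where 6.33% of all genes fell and 1.99% rose. CDK1, which phosphorylates vimentin and nestin in mitosis, was at 61.7, 55.9 and 79.7 FPKM in Long and at 85, 82.1 and 96.3 FPKM in EV (log2 difference -0.43, adjusted p = 0.00884 by limma). The kinases ROCK1 and ROCK2, which phosphorylate vimentin, had log2 differences of -0.82 and -0.73 (adjusted p = 0.0121 and 0.00916 by limma). All 3 Long libraries were below all EV libraries for CDK1, while ROCK1, at 6.64, 6.82 and 17.3 FPKM in Long and 16.7, 14.2 and 21.2 FPKM in EV, overlapped because of passage 3. ROCK2, at 7.46, 6.94 and 17.2 FPKM in Long and 15, 13.8 and 22.4 FPKM in EV, overlapped in the same way.

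The cell type markers were read against the same background in Long against EV, where 8.32% of all genes passed and 6.33% fell. Of 16 neuronal markers tested, ELAVL2, an RNA-binding protein of neurons, fell (log2 difference -0.34, adjusted p = 0.041 by limma), from 10.1 ± 0.794 to 7.88 ± 1.99 FPKM (SD, n = 3). Of 13 mesenchymal markers tested, ZEB1, a repressor of epithelial genes, fell (log2 difference -0.85, adjusted p = 0.00916 by limma), from 4.65 ± 1.65 to 2.28 ± 1.56 FPKM. In Long ZEB1 was at 1.56, 1.19 and 4.07 FPKM and ELAVL2 at 7.54, 6.08 and 10 FPKM, and both overlapped EV because of passage 3. None passed among 7 progenitor, 5 glial, 13 epithelial and 3 adrenal markers tested. The medians of the neuronal, epithelial and mesenchymal lists were 0.04, 0.10 and 0.01. GC content moved with these calls, with a median of 37.7% for all genes that fell in Long, 52.7% for those that rose and 47.8% for all genes tested. The transcripts of DST, CDK1, ROCK1, ROCK2, ELAVL2 and ZEB1 had between 36.3% and 41.6% GC, and those of LMNB2 and PKP3 had 61.1% and 66.7%. After correction for GC content DST, PKP3, ROCK2 and ZEB1 still passed (adjusted p between 0.0381 and 0.0404 by limma), whereas LMNB2, CDK1, ROCK1 and ELAVL2 did not (0.119, 0.0774, 0.057 and 0.709). The corrected log2 differences of these 4 were 0.15, -0.17, -0.60 and -0.06, beside -0.61 for ROCK2 and -0.65 for ZEB1, so ROCK1 kept most of its difference and ELAVL2 little of it. None of these 8 genes passed without the passage block, without passage 1 (adjusted p between 0.128 and 0.164 by limma) or without passage 2 (0.0611 to 0.39). Of all genes tested, 2 passed without the block and 2 without passage 1. All but LMNB2 passed without passage 3, and all but LMNB2 passed with FPKM rescaled to the same sum.

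The filament genes were also compared between passages. In a limma F test over the 3 passages, within groups, 4 of the 6 filament genes passed, namely NEFM, VIM, KRT8 and KRT18, where 36.4% of all genes did. The count was 1 with either rescaling, without a trend or with the length correction. NEFM was higher in passage 3 in every group. It was at 48.6, 58.1 and 53.8 FPKM in passage 1 and at 55.3, 54.6 and 57.3 FPKM in passage 2, in the order EV, Short and Long, against 70.8, 73.1 and 75.5 FPKM in passage 3. The passage 3 libraries were 0.42 above the others on the log2 scale with no overlap, and 13.1% of all genes also had every passage 3 library above the others. Its F test over the 3 passages gave an adjusted p of 0.000925 by limma.

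The other 3 genes went the opposite way. VIM was between 132 and 145 FPKM in passage 3 and between 148 and 164 FPKM in passages 1 and 2, a log2 difference of -0.17 with no overlap. Over the 3 passages its F test gave an adjusted p of 0.0152 by limma. NES was also lower in every passage 3 library, with a log2 difference of -0.16, but did not pass the F test (adjusted p = 0.202 by limma), and 17.3% of all genes had every passage 3 library below the others. KRT8 and KRT18 had log2 differences of -0.18 and -0.12 in passage 3, and their passage 3 libraries overlapped the others. Their F tests over the 3 passages gave adjusted p of 0.0263 and 0.0345 by limma. The means of KRT18 were 93.7, 85.4 and 82.1 FPKM in passages 1, 2 and 3, and without passage 1 its adjusted p was 0.413. INA was 0.11 higher in passage 3 and did not pass the F test (adjusted p = 0.295 by limma). The ratio of NEFM to VIM in EV was therefore 0.326 in passage 1, 0.374 in passage 2 and 0.536 in passage 3.

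The passage difference of NEFM held under 10 of 11 alternatives, all except leaving out passage 3 (adjusted p = 0.743 by limma). Those of VIM, KRT8 and KRT18 held under 5, 4 and 3 of them, and none of the 4 genes passed without passage 3. With FPKM rescaled to the same sum, NEFM was between 75 and 75.9 in passage 3 and between 49.2 and 57.7 in the others, and VIM was between 140 and 146 against 151 to 160. INA was then also apart, between 12.5 and 13.2 against 10.8 to 12.3, whereas NES overlapped, between 3.1 and 3.36 against 3.27 to 4.07. By the steps in the lowest FPKM the passage 3 libraries were also the deepest, at 1.11 to 1.2 times EV replicate 1 against 0.997 to 1.06 for the rest, and the part of depth in these differences was not tested. Of the marker lists, 7 of 13 epithelial, 7 of 13 mesenchymal, 5 of 16 neuronal, 2 of 7 progenitor and 2 of 5 glial genes differed between passages, and none of 3 adrenal genes did, where 36.4% of all genes did. The mesenchymal markers did not go one way, since SPARC was at 149, 124 and 88.4 FPKM in EV, lowest in passage 3, and ZEB1 was at 3.9, 3.51 and 6.54 FPKM, highest there. The neuronal and progenitor markers did not go one way either. In EV, ENO2, at 42.3, 34.5 and 22.4 FPKM, and HES1, at 34.1, 26.9 and 22.9 FPKM, were lowest in passage 3. The neuronal marker ELAVL2, at 9.88, 9.39 and 10.9 FPKM, and the progenitor marker PAX6, at 17.7, 18.9 and 20.4 FPKM, were highest there. ELAVL2 passed the F test over the passages (adjusted p = 0.0107 by limma) and PAX6 did not (0.36).

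**Figure D4:**
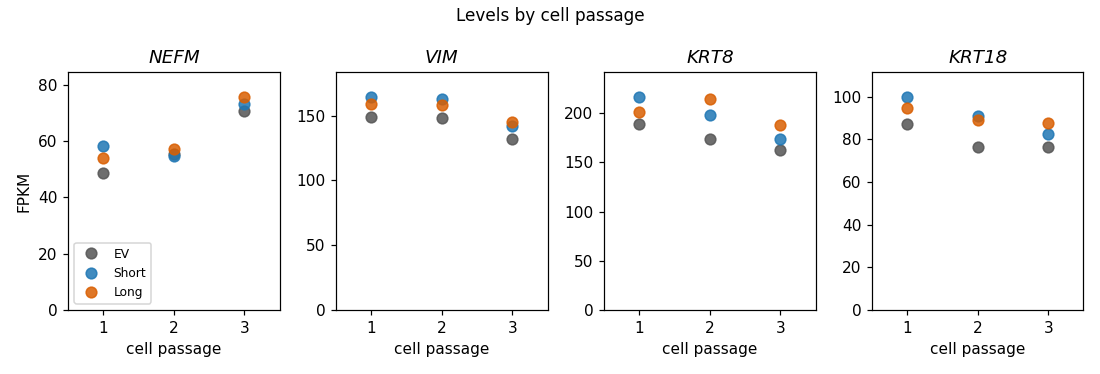
FPKM (y axes, from 0) of NEFM, VIM, KRT8 and KRT18 by cell passage (x axes), 1 point for each library, coloured by group. NEFM is highest in passage 3 in all 3 groups, between 70.8 and 75.5 FPKM, whereas VIM is lowest there, between 132 and 145 FPKM.

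The genes whose levels were most like those of each filament gene were found by the Pearson correlation of log2(FPKM + 1) over the 9 libraries, which share passages and transfections, so the values are descriptions only. NEFM was most like WDR43 (r = 0.99), PRPF38A (0.98) and the splicing factor gene SRSF7 (0.97). INA was most like TYW1 (0.95), DNAJB11 (0.94) and POLR2K (0.93). VIM was most like the read-through gene NME1-NME2 (0.99), whose reads overlap those of NME1 and NME2, GOLGA2 (0.98) and RPN1 (0.98). NES was most like CKMT1A (0.96), which has a near-identical copy, CCS (0.95) and ZNF275 (0.95). KRT8 was most like KANK2, POC1A and CHAF1A (0.98 each). KRT18 was most like the mitotic kinase gene PLK1 (0.99), MYBL2 (0.99) and PHF19 (0.98). Within the set, KRT8 and KRT18 had r = 0.90, VIM and KRT8 0.91, VIM and NES 0.79, NEFM and INA 0.66, and NEFM and VIM -0.63.

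Some of the transcripts share sequence with other genes, which limits how firmly their FPKM can be assigned. The libraries kept strand, but whether strand was used for the FPKM is not given in the sources used here. Every stretch of 100 bases of each main transcript was searched for in all other annotated transcripts on either strand. KRT18 (chr12:53342655-53346690, plus strand) overlaps KRT8 (chr12:53290971-53343738, minus strand), and 18.5% of its stretches lie in KRT8 on the other strand. For VIM (chr10:17270240-17279592, plus strand) 26.4% lie in VIM-AS1 on the other strand, which was at 1.14 to 1.7 FPKM over the libraries. For INA (chr10:105036895-105050103, plus strand) 11.2% lie in NT5C2 on the other strand, which was at 20.9 to 24.9 FPKM and so higher than INA itself. For NEFM (chr8:24771271-24776611, plus strand) 27% lie in an antisense gene that is not analysed here. NES (chr1:156638555-156647199, minus strand) and KRT19 (chr17:39679869-39684560, minus strand) shared no such stretch with another gene, and NEFH (chr22:29876207-29887379, plus strand) shared 6%.

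KRT8 shared 7.1% of its stretches with processed pseudogenes on the same strand, of which KRT8P3 held 4.2% and KRT8P33 2%. The 45 listed KRT8 pseudogenes summed to between 6.56 and 9.14 FPKM over the libraries. This was 3.79% to 4.86% of the FPKM of KRT8 and these pseudogenes together. The 61 listed KRT18 pseudogenes summed to between 1.31 and 2.34 FPKM, or 1.34% to 2.76% of KRT18 and its pseudogenes together. These sums are small beside the 2 keratin genes, and how the reads were divided between them is not known.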

How the data were processed

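RNA-seq libraries of polyadenylated RNA from HEK293 cells were made with a stranded kit. The authors mapped the paired reads with TopHat (version 1.4.1), first on transcripts of Ensembl and next on hg19, and the submitters' processing notes also name Cufflinks. The FPKM of each Ensembl gene were deposited as 1 table with a column for each library and no counts, so read totals are unknown (only a rough relative depth was estimated) and no counting intervals or detection floors were computed. FPKM are relative to each library, so very abundant transcripts lower all others. The Ensembl release used for these libraries is not given in the sources used here, although the paper names one for its exon annotation.

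Symbols, coordinates, GC content and length came from GENCODE v44 lifted to GRCh37, which matched 47578 identifiers (87.2%). On the log2(FPKM + 1) scale, limma (version 3.58.1, with trend) in R (version 4.3.3) was fitted to genes averaging 1 FPKM or more, with group and replicate number as a block, and Benjamini-Hochberg adjustment at 0.05. Fold changes on this scale are smaller than the true ones for low genes. The pairing is inferred from the methods, by which transfections were repeated in different passages. That equal numbers mean the same passage is not stated. Deviations from group means correlated at 0.55 on average between libraries of the same number (0.33 to 0.81). Between the others the mean was -0.26 (-0.63 to 0.37), so the ranges overlapped. EV replicate 1 correlated at 0.45 with Short replicate 1 and at 0.37 with Short replicate 2, so these 2 numbers were hardly told apart. Deviations sum to 0 within a group, so the negative mean is in part built in. With the block fitted, p-values for groups rest on how the group differences varied from passage to passage in 1 cell line. The fit was tested on simulated data.

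The set of genes, the marker and filament lists and the tests were chosen with earlier results of these data known. Genes named were the set itself, ADARB1, the 3 most abundant genes of each list, every list gene that passed (at most 5 a list and comparison) and the 3 most correlated genes of each tested filament gene, with exceptions stated, beside genes at 0 in every library and genes that share sequence with the set. Alternatives were another pseudocount, 2 rescalings, no block, fewer groups, no trend, other filters, leaving out each passage, and corrections for GC content and length (loess, span 0.3). Editing data, tissue RNA-seq and proteomics were not analysed here.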

Additional observations from a re-analysis of the deposited data

How the results depend on the processing

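Of 231 values of the 18 fold changes of filament genes under the alternatives, 207 kept their direction and side of the threshold, 12 lost a call, 1 gained one and 11 turned sign. The number of filament genes called in Long against EV, 1 (KRT8), was 0 with a pseudocount of 0.1, the sum or median ratio scaling, no replicate block, only the groups compared, no trend, no filter, the GC correction or the length correction, 0 to 0 when each replicate was left out, and 2 (KRT8 and KRT18) with a minimum mean of 5 FPKM. The adjusted p of KRT8 ranged from 0.0371 to 0.637 and that of KRT18 from 0.0466 to 0.637. The counts for Short against EV and Long against Short stayed at 0 under all 13 alternatives. The number that differed between passages, 4, was 1 with the sum or median ratio scaling, without a trend and with the length correction, 2 without a filter (NEFM and VIM) and with the GC correction (INA and NEFM), and 0 to 4 when each replicate was left out, with 0 without replicate 3.

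NES in Short against EV turned to -0.02 with the sum scaling and -0.05 with the GC correction. In Long against Short, NEFM turned to -0.03 and -0.02 without replicates 2 and 3 (0.06 without replicate 1), -0.02 with the GC correction and -0.00 with the length correction, INA to -0.03 without replicate 2 (0.08 without replicate 1), and KRT18 to 0.00 and 0.01 with the sum and median ratio scaling and 0.03 and 0.00 without replicates 1 and 2. The cause was not tested. Levels and shares in EV moved by less than 1 SD in all 66 values. Leaving out 1 of 3 libraries cannot move a mean by 1 SD, so this limit says little for those values. Without EV replicate 2 the level of KRT19 fell from 0.0736 to 0.0236 FPKM and its share from 0.0158% to 0.00515%. Over all genes, the calls in Long against EV, 1148, were 2 without the replicate block, 1 without a filter, 646 without a trend, 752 with only the groups compared, 305 with the GC correction, and 2, 100 and 1031 without replicates 1, 2 and 3. Those in Short against EV, 5, ranged from 1 (no filter) to 59 (without replicate 3), and that in Long against Short, 1, from 0 to 9 (without replicate 3). The table holds no counts, so depth sets no stated limit.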
